A study of Mus musculus with 6 samples.

Results

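Bidirectional promoters are the short stretches of DNA that lie between the starts of 2 genes transcribed away from each other on opposite strands. They were found here in the basic gene annotation of the mouse genome as pairs of protein-coding genes whose outermost annotated starts face away from each other at a distance of at most 1000 bp. The annotation held 778 such pairs, formed by 1541 of 21851 protein-coding genes, or 7.05%. Since 15 genes stood in more than 1 pair, the 778 pairs occupied 763 separate loci. The members in the data were the accessible intervals that overlapped the span between the starts of a pair. They numbered 781 and 774 in the beige libraries, 803 and 805 in the white libraries and 784 and 786 in the brown libraries, in all 4733 of 709164 intervals, or 0.667%. They were compared with 19279 single-start promoters, which belonged to genes in no pair and had no start of another protein-coding gene within 1000 bp. For each of those the region was the 145 bp ending at its start, which is the median length of the spans.

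The intervals came from ATAC-seq, in which a transposase cuts DNA that nucleosomes leave free. Adipocytes were differentiated for 7 days from the stromal vascular fraction of wild-type C57BL/6J males aged 3 to 4 weeks, with 2 libraries for each condition and no genetic change in any group. Beige cells came from inguinal fat and brown cells from brown fat, and both were induced with insulin (5 μg/ml), dexamethasone (5 μM), IBMX (0.5 mM), T3 (1 nM) and rosiglitazone (1 μM), then kept on insulin, T3 and rosiglitazone. White cells came from inguinal fat and were induced with insulin (5 μg/ml), dexamethasone (1 μM) and IBMX (0.5 mM), then kept on insulin alone. The methods of the study give other amounts for part of this medium and do not describe the brown libraries. The study calls the ATAC-seq libraries of a group biological replicates, without saying whether they came from separate cultures or animals. Its statement may not cover the brown libraries, which their labels number only as repeats. The spread between the libraries of a group may thus in part be technical.

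A bidirectional promoter lets 1 nucleosome-free region serve a pair of transcription start sites, and a shared region of this kind is usually rich in CG dinucleotides and poor in TATA boxes. The arrangement is common among housekeeping genes, such as those of DNA repair, mitochondrial translation and the respiratory chain, and among the histone genes, where H2A and H2B genes are often placed head to head. Beige and brown adipocytes are rich in mitochondria, many proteins of which are encoded from such promoters.

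The starts of a pair lay 144 bp apart in the median, with quartiles of 75 and 276 bp and a range of 1 to 996 bp. Of the 778 pairs, 656 (84.3%) lay in a CpG-rich kilobase, defined as a GC share of at least 50% and an observed-to-expected CpG ratio of at least 0.6, against 8087 (41.9%) of the single-start promoters. The median CpG ratio was 0.773 for the pairs and 0.519 for the single-start promoters. The following spans, read from mm10 on the plus strand from the start of the minus-strand gene to the start of the plus-strand gene, show how short and how different in composition these shared regions are. Capitals mark every match, on either strand, to the motifs searched below. ETS factors were searched for with CCGGAAG and the trimeric factor NF-Y with CCAAT. The GC box of SP and KLF factors was searched for with GGGCGG, the site of E2F factors with TTTCCCGC, and the TATA box, which positions the start of many regulated genes, with TATAAA. Cebpz/Ndufaf7 had the highest fold enrichment of all pairs by its mean percentile over the 6 libraries, and its span holds no match to these letters. Hspd1/Hspe1 encodes the mitochondrial chaperonin and its cofactor and holds a palindrome of ETS matches that overlap. Emc8/Cox4i1, which includes a subunit of cytochrome c oxidase, holds 7 matches to SP/KLF. Hadha/Hadhb encodes both subunits of the mitochondrial trifunctional protein of fatty acid oxidation. Mrps12/Sars2, a pair of mitochondrial translation genes, holds 4 NF-Y matches and an SP/KLF match that overlaps an E2F match. Hist1h2ac/Hist1h2bc represents the histone pairs, with 3 NF-Y matches and a TATA match. Rad51c/Tex14 is shown because it is CpG-rich and yet had no interval over its span.
Cebpz/Ndufaf7, chr17:78937066-78937136: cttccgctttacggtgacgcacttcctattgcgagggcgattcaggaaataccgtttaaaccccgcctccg
Hspd1/Hspe1, chr1:55088024-55088132: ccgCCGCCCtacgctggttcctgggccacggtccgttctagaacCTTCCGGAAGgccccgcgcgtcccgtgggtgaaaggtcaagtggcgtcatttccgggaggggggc
Emc8/Cox4i1, chr8:120668121-120668222: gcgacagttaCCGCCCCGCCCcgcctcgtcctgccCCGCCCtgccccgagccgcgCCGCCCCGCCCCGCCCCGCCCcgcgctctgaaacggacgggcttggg
Hadha/Hadhb, chr5:30155162-30155248: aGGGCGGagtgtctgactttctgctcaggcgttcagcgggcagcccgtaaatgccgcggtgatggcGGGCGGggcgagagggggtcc
Mrps12/Sars2, chr7:28741820-28742002: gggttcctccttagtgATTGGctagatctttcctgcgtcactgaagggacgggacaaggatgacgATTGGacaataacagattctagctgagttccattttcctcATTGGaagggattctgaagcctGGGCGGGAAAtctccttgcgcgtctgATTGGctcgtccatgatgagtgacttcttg
Hist1h2ac/Hist1h2bc, chr13:23683948-23684199: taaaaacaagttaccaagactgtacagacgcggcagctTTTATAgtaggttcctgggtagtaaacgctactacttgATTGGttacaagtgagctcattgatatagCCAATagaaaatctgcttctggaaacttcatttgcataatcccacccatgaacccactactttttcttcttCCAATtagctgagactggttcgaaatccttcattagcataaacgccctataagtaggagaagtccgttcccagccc
Rad51c/Tex14, chr11:87404954-87405065: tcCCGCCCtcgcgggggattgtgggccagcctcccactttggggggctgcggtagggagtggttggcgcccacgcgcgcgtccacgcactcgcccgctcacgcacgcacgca

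The lists of the 6 libraries held 109143 to 127490 intervals each. As a check of the labels, 8 of 10 adipocyte markers had an interval within 1000 bp of their start in every library, Cd36 and Lipe being without. The same was true of 3 to 4 of 10 macrophage markers, 5 to 6 of 10 endothelial markers and 6 to 9 of 10 markers of adipose progenitors. Ptprc, Csf1r, Cdh5 and Vwf had none in any library. Adgre1, Cd68 and Cd14 of the macrophage list had one in every library. So did Pecam1, Kdr, Tek, Flt1 and Erg of the endothelial list. The counts do not set adipocytes apart from progenitors. No share over all genes is given for such windows, so this is a weak check. Read numbers are not part of these lists. The study's reporting summary gives fewer mapped reads for both beige libraries than for both white ones. The mapped share of reads was also lower in beige, and no such numbers are given for brown. The part of depth in the values below was not tested. The fold enrichment of an interval was used only as its percentile in the list of its own library, 100 being the highest.

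Almost every bidirectional promoter was accessible in every library. An interval overlapped the span in 94.6% and 94.7% of pairs in the beige libraries, 94.7% and 94.99% in the white libraries and 94.9% and 94.5% in the brown libraries. The single-start promoters reached between 52.5% and 54.5%, far below the pairs in each library. The difference was 41.5 ± 0.77 percentage points (SD, n = 6 libraries) and had the same sign in 6 of 6 libraries, with an exact paired permutation p of 0.03125, two-sided, which is the smallest that 6 libraries can give, and a Benjamini-Hochberg adjusted p of 0.0335 over the 15 tests made. This p measures the spread between libraries that were all set against the same promoters, and not a sampling of promoters. The size of the difference varied with CpG content. Among CpG-rich promoters alone, 98.8 to 98.9% of pairs and 90.4 to 92.1% of single-start promoters had an interval, and the difference was 7.58 ± 0.745 percentage points (exact permutation p = 0.03125, higher in 6 of 6 libraries). Outside the CpG-rich definition the classes lay far apart. There 85 of 122 pairs (69.7%) and 20.6% of single-start promoters had an interval in all 6 libraries. An interval was found in no library at 23.8% of those pairs and 68.3% of those single-start promoters.

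The intervals over the pairs were also wider, stood higher in their lists and held more summits than those of single-start promoters. Their median width was 884 and 964.5 bp in the beige libraries, 726 and 821 bp in the white libraries and 815 and 784.5 bp in the brown libraries. Single-start promoters had medians of 664 to 824 bp, and the difference within a library averaged 97.2 ± 26.2 bp. Beige 2 had the widest and white 1 the narrowest intervals in both classes. The median fold percentile of the pairs was 93.1 and 92.3 in the beige libraries, 91.9 and 89.0 in the white libraries and 93.5 and 94.1 in the brown libraries. It lay 5.42 ± 0.769 points above that of the single-start promoters. An interval over a pair held 2.47 ± 0.293 summits on average, against 2.21 ± 0.215 for single-start promoters. All of these differences had the same sign in 6 of 6 libraries (exact permutation p = 0.03125 and adjusted p = 0.0335 each). Among CpG-rich promoters they were 55.1 ± 27.4 bp in width, 3.84 ± 0.799 points of the fold percentile and 0.172 ± 0.0756 summits, again higher in 6 of 6 libraries.

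**Figure D1:**
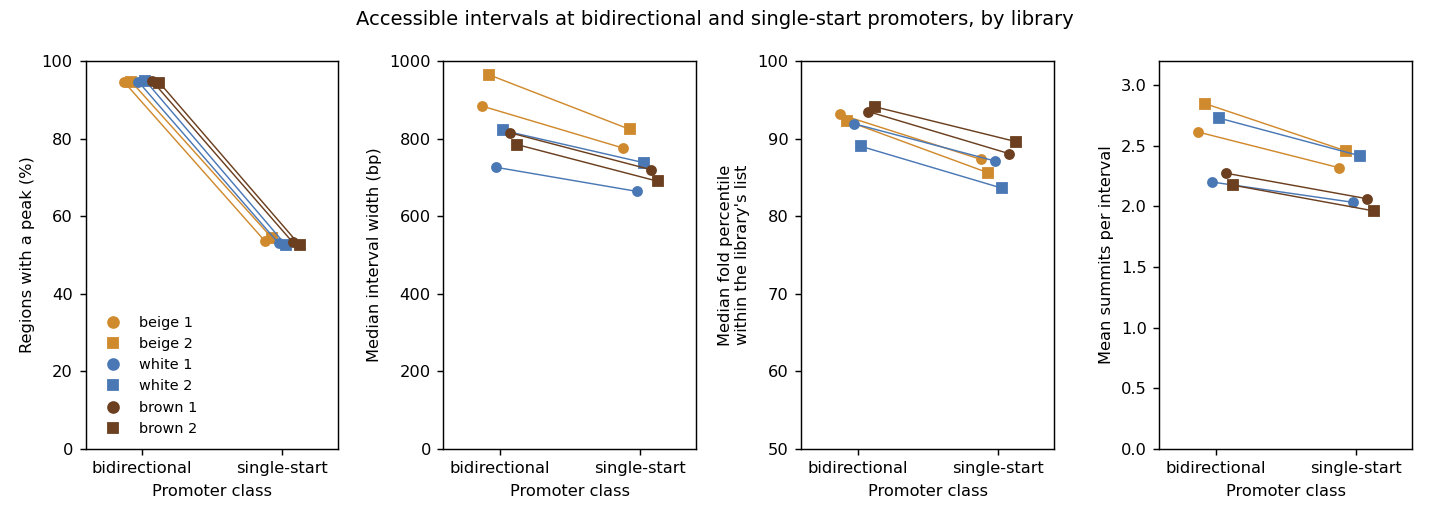
Values of bidirectional and single-start promoters in each library: the share of regions with an interval (%), the median interval width (bp), the median fold percentile (axis from 50) and the mean number of summits per interval. Lines join the classes within a library, and each of the 24 lines falls from the bidirectional to the single-start promoters.

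Cover by intervals reached far upstream of the starts of a pair and less far downstream. At the start itself, 91.6% of the starts in pairs lay under an interval on average over the libraries, against 89.6% of CpG-rich single-start promoters and 51.8% of all single-start promoters. At 500 bp upstream, which for most pairs lies within the other gene, the shares were 61.5%, 24.3% and 12.5%. At 500 bp downstream the order of the first 2 was the other way round, with 35.1% of the starts in pairs and 58.8% of CpG-rich single-start promoters under an interval.

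**Figure D2:**
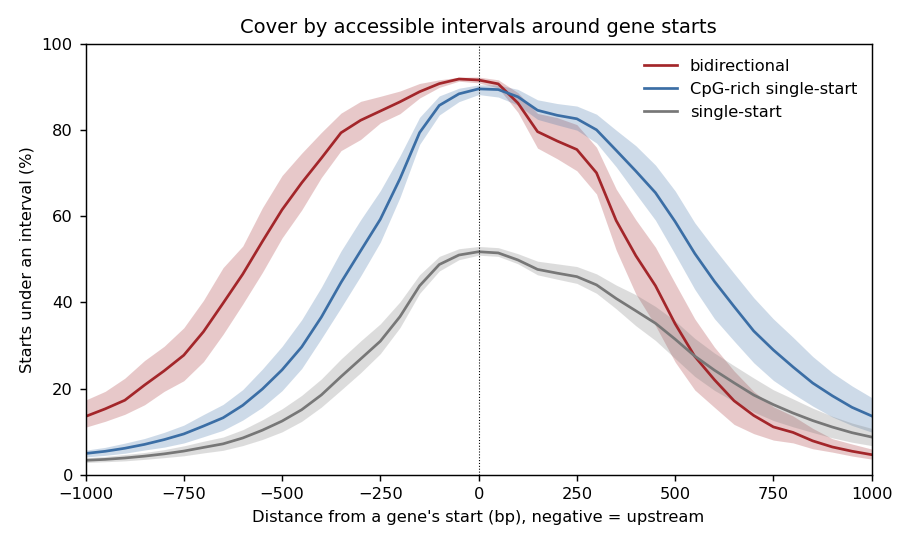
Share of gene starts under an accessible interval (%) against the distance from the start (bp, negative values upstream), as the mean over 6 libraries with a band from the lowest to the highest library. The curve of the bidirectional promoters falls slowly upstream, to 61.5% at 500 bp, where CpG-rich single-start promoters are at 24.3%, and lies below them downstream.

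The placement of an interval varied with the distance between the starts, and its width hardly did. At 286 pairs with starts up to 100 bp apart, 1 interval lay over both starts in 99.3% of open pairs (range over libraries 98.9 to 99.6%). The share was 95.7% of the pairs over 100 and up to 200 bp apart, 86.5% up to 300 bp, 70.6% up to 500 bp and 33.4% (24.4 to 39.7%) for the 87 pairs over 500 bp apart. In the last class 38.3% of open pairs had several intervals over the span. The median width of the strongest interval over a span was 843, 885, 900, 856 and 832 bp in the 5 classes. It did not grow with the distance. Other intervals over the same span are left out of this width. Spearman's rho between this width and distance over the open pairs of a library was 0.0467 on average. The reach past the starts shrank, which follows from a steady width over a longer distance. The strongest interval extended 401 bp into the minus-strand gene and 369 bp into the plus-strand gene in the closest class, and 191 and 91.3 bp in the widest class. At single-start promoters it extended 422 bp downstream and 264 bp upstream of the start. The fold percentile was 94.5 in the closest class and 87.0 in the widest.

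Pairs with starts far apart often had several summits in or near the span. The share of open pairs with at least 2 summits between 150 bp before and 150 bp after the span was 4.71%, 17.04%, 43.5%, 65.8% and 76.4% in the 5 classes. A longer window holds more summits by itself, so windows of the same median lengths were laid over open single-start promoters, where the shares were 7.65%, 17.4%, 28.6%, 34.5% and 39.7%. The pairs were lower in 6 of 6 libraries for starts up to 100 bp apart and higher in 2 of 6 in the next class. They were higher in 6 of 6 libraries in each class over 200 bp. These shares are given as a description, with no test. The strongest summit was nearer the minus-strand start in 51.9 ± 1.13% and nearer the plus-strand start in 47.9 ± 1.10% of open pairs. The minus-strand start had the larger share in 6 of 6 libraries, by a few points, and this was not tested.

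**Figure D3:**
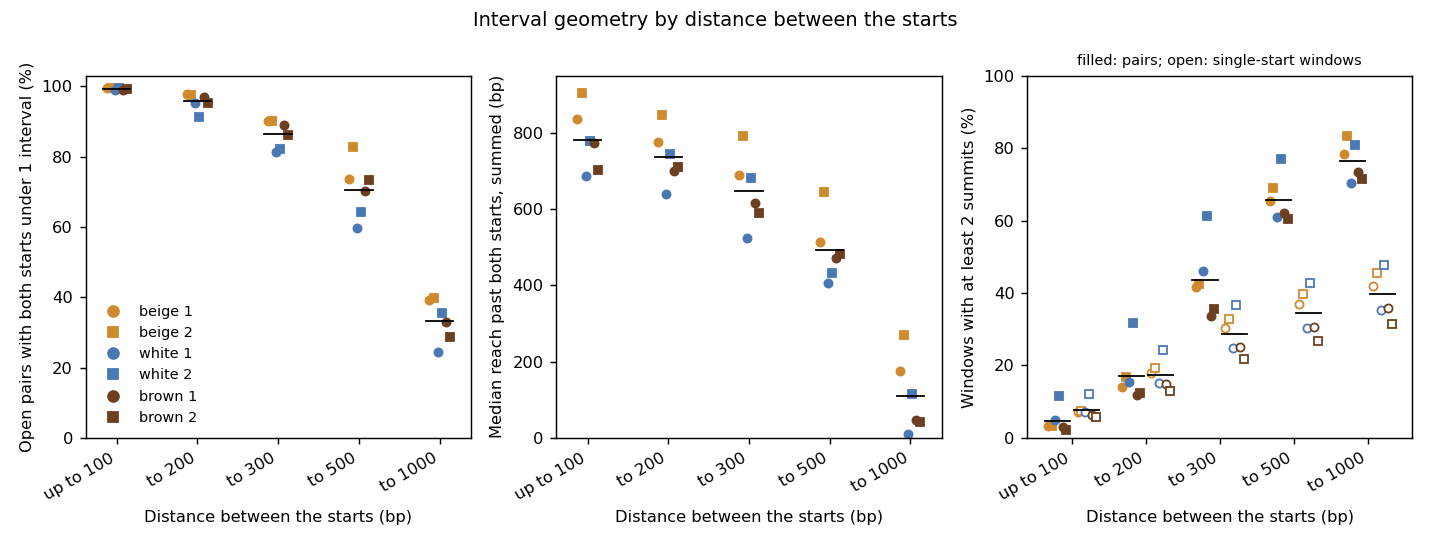
Geometry of the intervals by the distance between the starts (bp), with 1 point per library and bars at the mean: open pairs with both starts under 1 interval (%), the median reach past both starts summed (bp), and windows with at least 2 summits (%), for pairs (filled) and for windows of the same length at single-start promoters (open). Cover of both starts falls from 99.3% to 33.4%, and pairs exceed single-start promoters in summits once the starts are over 200 bp apart.

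Individual pairs show these forms. Atm/Npat, the divergent genes of a DNA damage kinase and a regulator of histone transcription, has starts 307 bp apart and had 1 summit in every library but white 2, which had 2. Its strongest summit lay 130 to 169 bp from the Atm start, near the middle of the span. Mcm4/Prkdc, a replicative helicase subunit and the DNA-dependent protein kinase, has starts 489 bp apart and had 3 or 4 summits. The strongest lay 133 to 138 bp from the Mcm4 start in the beige and brown libraries, and at 451 and 440 bp, close to the Prkdc start, in the white libraries. Uqcr10/Zmat5, which includes a subunit of respiratory complex III, had its summit 295 to 314 bp from the Uqcr10 start, at the Zmat5 end of a distance of 336 bp, in all 6 libraries. The interval was 994 and 1124 bp wide in the beige libraries and 268 to 296 bp in the white and brown libraries. At Hspd1/Hspe1 the strongest summit lay beyond the span of 109 bp printed above, 211 to 292 bp from the Hspd1 start and so inside Hspe1, within an interval of 1148 to 1358 bp.

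The sequence around the summits differed between the classes. Within 100 bp of the strongest summit, the ETS motif CCGGAAG was found in 26.5% and 25.8% of the intervals over pairs in the beige libraries, in 25.7% and 23.5% in the white libraries and in 25.6% in each brown library. Intervals at single-start promoters had it in 14.3 to 14.7%, so that the classes were 10.9 ± 1.08 percentage points apart. The NF-Y motif CCAAT was found in 38.1 ± 1.46% of the intervals over pairs and in 29.5 ± 1.02% at single-start promoters. YY1 (AAGATGGC) was at 6.21% against 3.75%, the palindrome TCTCGCGA bound by ZBTB33 at 3.51% against 1.81%, NRF1 (GCGCATGC) at 5.44% against 4.24%, and E2F (TTTCCCGC) at 2.01% against 1.35%. The last carries letters that can overlap a match to SP/KLF, as in the span of Mrps12/Sars2. Both strands were searched. These 6 motifs were more frequent at the pairs in 6 of 6 libraries (exact permutation p = 0.03125 and adjusted p = 0.0335 each). As for the open share, this p measures the spread between libraries that read largely the same promoters, and not a sampling of promoters. Counts per library over the pairs were small for E2F, at 14 to 18 intervals, and for NRF1, at 36 to 49. Whether gaps of this size exceed a sampling of promoters was not tested.

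Other motifs were less frequent at the pairs. The AP-1 site TGACTCA, bound by Fos and Jun proteins at many enhancers, was found in 1.46% of the intervals over pairs and 3.04% of those at single-start promoters. The CTCF core AGGGGGC, which marks many chromatin loop anchors, was found in 10.0% and 12.6%. SP/KLF matches were found in 61.0% and 63.1% and TATA matches in 2.31% and 2.78%. All 4 were lower in 6 of 6 libraries (exact permutation p = 0.03125, adjusted p = 0.0335 each). The limit on p given for the other motifs holds here too, and TATA was matched in only 15 to 21 intervals over pairs per library. The cyclic AMP response element (TGACGTCA) was at 3.55% and 3.10%, higher in 5 of 6 libraries (exact permutation p = 0.0625, which misses the threshold of 0.05). Among CpG-rich promoters the ETS motif stood at 26.3% and 16.7% and the NF-Y motif at 40.1% and 29.5%. The TATA difference changed sign there (2.16% against 2.08%, exact permutation p = 0.5625), and the gap of SP/KLF grew to 62.3% against 70.8%. In 300 bp of sequence at each promoter, whether open or not, the ETS motif was found in 220 of 778 pairs, or 28.3% (exact 95% binomial interval 25.1 to 31.6%), against 10.2% of all promoters. SP/KLF was found in 67.1% of pairs and 43.8% of all promoters, NF-Y in 44.7% and 38.9%, and TATA in 4.88% and 13.0%. CTCF was found in 13.4% of pairs (exact 95% binomial interval 11.1 to 16.0%) and 12.3% of all promoters, in the other order from that around the summits. Some of these contrasts changed among CpG-rich promoters. There SP/KLF was found in 72.3% of pairs and 73.8% of single-start promoters, and TATA in 4.27% and 6.02%. ETS was at 30.5% and 16.6% and NF-Y at 45.4% and 36.8%. CTCF was at 14.3% and 19.6%, in the order seen around the summits. Pairs open in all 6 libraries had a median fold percentile of 95.002 with an ETS match (217 pairs) and 92.0 without (514 pairs), and of 86.9 with a TATA match (35 pairs) and 93.3 without. Such gaps were not particular to these motifs. The median was 94.7 with an NF-Y match (327 pairs) and 92.0 without, and 95.9 with an E2F match (24 pairs) and 93.1 without. With an AP-1 match (19 pairs) it was 89.0, and 93.2 without. A match is a description of the sequence and not of binding.

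**Figure D4:**
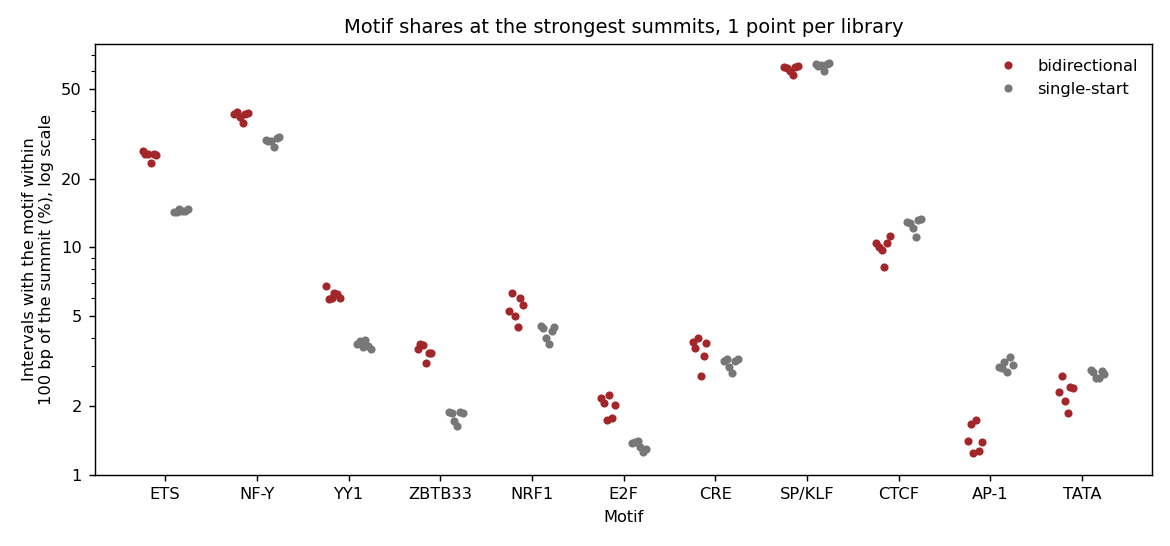
Share of intervals with each motif within 100 bp of the strongest summit (%, log scale), with 1 point per library for bidirectional and single-start promoters. ETS is at 23.5 to 26.5% for the pairs and 14.3 to 14.7% for single-start promoters, and AP-1 lies in the other order.

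Accessibility of the pairs did not sort by condition at the level of presence or absence. An interval was found in all 6 libraries at 731 pairs (94.0%), where 49.9% of all promoters, pairs and single-start together, had one in all 6, and in no library at 34 pairs (4.37%), against 40.2% of all promoters. Only 13 pairs had an interval in some libraries. No pair had it in both libraries of 1 condition and neither library of the others, nor in both libraries of 2 conditions and neither of the third, which allows a share of up to 0.473% (exact 95% binomial interval) for each pattern. Among all promoters, 0.219% had an interval in both beige libraries only, 0.15% in both white only, 0.0798% in both brown only, 0.354% in beige and brown without white, 0.224% in beige and white without brown, and 0.0698% in white and brown without beige. With shares this small, 0 of 778 is near the background. Any pair of libraries differed at 2 to 11 of the 778 pairs, or 0.257 to 1.41%, against 3.22 to 5.21% of single-start promoters. The largest number, 11, was between the brown libraries.

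In 5 of the 13 pairs the strongest summit lay outside the span in every library with an interval. Among all open pairs it lay inside the span in 60.4% on average (47.0 to 64.2% over libraries). A summit outside the span was thus not particular to the 13 pairs. Ndufa5/Asb15, which includes a complex I subunit, was counted in beige 2, white 2 and brown 2. Its strongest summit lay 367 to 415 bp from the span there. In the other libraries the nearest interval ended 20 to 47 bp short of the span. At Surf4/Stkld1 the interval touched the span by 14 bp in brown 2 and stopped 4 to 40 bp before it in the other 5 libraries. Weak intervals made up others. Peg3/Usp29, an imprinted locus, was counted in white 1, white 2 and brown 2 at fold percentiles of 20.1, 3.47 and 0.0495.

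The 34 pairs without an interval in any library were mostly poor in CpG, 29 of them falling outside the CpG-rich definition. Among those with the shortest spans were Best1/Rab3il1 (36 bp apart), Slc30a3/Dnajc5g (70 bp), Il11/Tmem190 (78 bp) and Ccnt1/4930415O20Rik (81 bp). Ccnt1, the cyclin T1 subunit of the elongation factor P-TEFb, and Xrcc1, a scaffold of single-strand break repair paired with Pinlyp, had an interval at another annotated start in all 6 libraries. At 10 of the 34 pairs 1 of the genes did so, and in these the outermost annotated start is not the one that lay under an interval. At Rad51c/Tex14 the nearest interval lay 43 to 123 bp from the span. Of the 5 CpG-rich pairs without an interval, 3 were histone pairs. In Hist1h2bq/Hist1h2ao and Hist1h2ap/Hist1h2br the central 50 bases of the span occur in 2 copies in the genome, which was so for no other of the 34 pairs. Hist1h2ba/Hist1h2aa, which encodes testis-specific histones, has 1 copy of them. The part of copy number in these absences was not tested.

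The rank of an interval varied between libraries. Over pairs open in both, Spearman's rho of the fold percentile was 0.909 between the beige libraries, 0.829 between the white and 0.895 between the brown, and 0.730 to 0.865 between libraries of different conditions. White 1 was closer to brown 1 (0.848) and brown 2 (0.865) than to white 2, so that the ranks did not sort by condition throughout. These points share their pairs and are given as a description. Of the 731 pairs, 252 (34.5%) ranked higher in both beige libraries than in both white ones and 115 (15.7%) lower, where 29.8% and 18.7% of all promoters open in 6 libraries did. Brown exceeded white at 317 pairs (43.4%) and fell below it at 58 (7.93%), with 36.9% and 13.7% for all promoters, and brown exceeded beige at 278 pairs (38.0%) and fell below it at 104 (14.2%), with 34.2% and 16.6%. The shares of pairs thus lay a few points from the background in each direction. Brown and white libraries differed in both fat depot and medium, and the brown libraries are absent from those that the study's reporting summary lists. Brown and beige shared the medium but differed in depot and in that listing. Such differences cannot be told apart here. With 2 libraries against 2 no permutation p under 0.333 can be had, so no pair was tested between conditions. The median distance in rank between replicates was 3.38 points in white against 1.74 in beige and 1.72 in brown.

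Some pairs stood out in rank, and they were chosen after their values were seen. Klc4/Mrpl2, a kinesin light chain and a protein of the large mitochondrial ribosomal subunit, was at the percentiles 77.6 and 75.5 in beige, 48.1 and 46.1 in white and 74.8 and 87.7 in brown. The white libraries were the lowest and did not overlap the others. Fbxo44/Fbxo2, genes of F-box proteins of ubiquitin ligases, was at 78.7 and 77.0 in beige, 41.8 and 50.5 in white and 78.2 and 85.8 in brown. Taf6/Cnpy4, which includes a TFIID subunit, was at 92.1 and 93.2 in beige, 32.4 and 70.8 in white and 80.2 and 79.6 in brown. All 3 pairs were lowest in white, and at Taf6/Cnpy4 the white libraries differed widely from each other. Obsl1/Inha, which includes the inhibin alpha subunit, ran the other way against brown, at 68.2 and 72.2 in beige, 62.7 and 52.8 in white and 28.6 and 53.3 in brown. The brown and white ranges overlapped there. Other pairs were highest in white without overlap. Sgce/Peg10 was at 48.9 and 27.8 in beige, 54.9 and 52.4 in white and 33.7 and 26.4 in brown. Mapk4/Gm9925 was at 60.7 and 57.0, 84.0 and 66.9, and 35.0 and 59.1 in the same order.

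**Figure D5:**
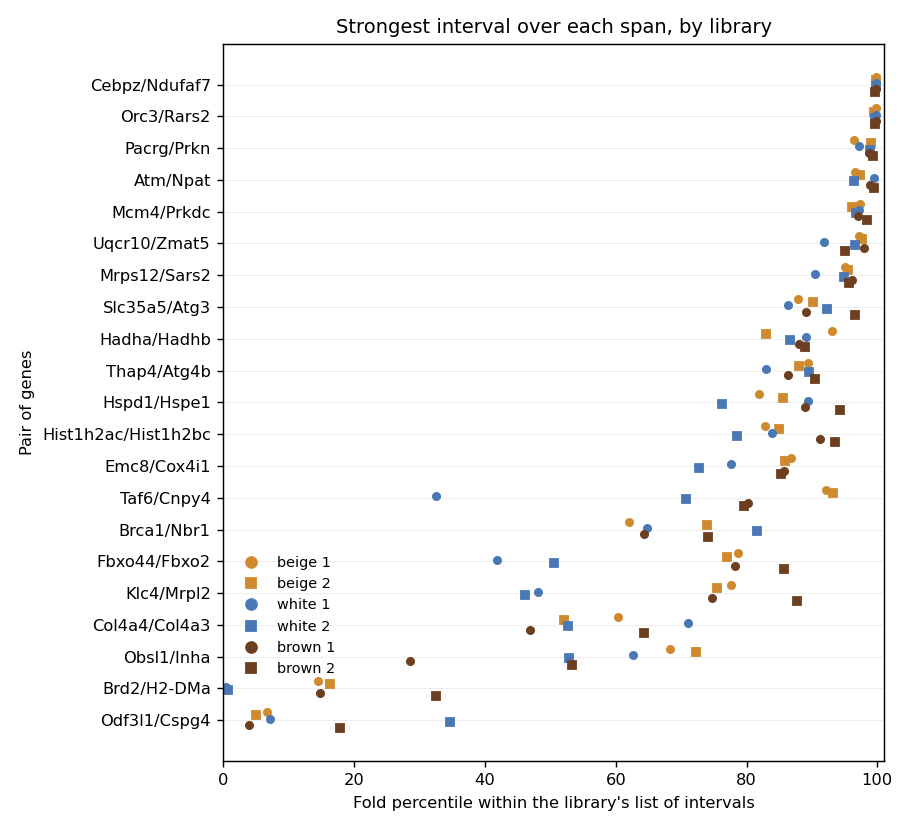
Fold percentile of the strongest interval over each of 21 spans, ordered by their mean, with 1 point per library (colour for condition, shape for replicate). The top pairs lie within a few points of each other in all libraries, while Klc4/Mrpl2, Fbxo44/Fbxo2 and Taf6/Cnpy4 have their lowest points in the white libraries.

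By mean fold percentile over the 6 libraries, the pair with the strongest interval was Cebpz/Ndufaf7. This pair, a ribosome biogenesis factor and an assembly factor of complex I, was between 99.7 and 99.9 in every library. Tmem68/Tgs1, Pms1/Ormdl1 and Orc3/Rars2 followed, the last joining a subunit of the origin recognition complex with the mitochondrial arginyl-tRNA synthetase over 13 bp at a percentile of 99.5 to 99.8. At the other end, Odf3l1/Cspg4 had percentiles of 3.90 to 34.6, with summits of 364 to 445 bp from the Odf3l1 start and thus past the Cspg4 end of its 354 bp. Brd2/H2-DMa, a bromodomain protein and a class II antigen loading chain, was at 14.5 and 16.2 in beige, 0.393 and 0.640 in white and 14.8 and 32.5 in brown. The widest intervals, at Srgap2/Fam72a, measured 1634 to 1792 bp over starts 556 bp apart.

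Gene families differed in how many members stood in a pair. Of the core histone genes, 27 of 61 did (44.3%, exact 95% binomial interval 31.5 to 57.6%), against 7.05% of all protein-coding genes, and 13 of their 14 pairs joined 2 histone genes. An interval lay over 11 of the 14 in all 6 libraries, as it did at 24 of 33 single-start histone genes and at 94.0% of all pairs. They ranked lower than most pairs, with a median fold percentile of 83.9, against 93.2 for all pairs open in 6 libraries. Hist1h2ac/Hist1h2bc was at 82.8 and 84.9 in beige, 83.9 and 78.5 in white and 91.3 and 93.5 in brown, so that the brown libraries were the highest.

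Mitochondrial genes were frequent among the pairs. Proteins of the mitochondrial ribosome stood in a pair in 21 of 78 cases (26.9%, against 7.05% of all protein-coding genes). All 20 pairs were open in 6 libraries at a median percentile of 94.6. Mrpl46/Mrps11 joins a member of each subunit. Of the respiratory chain and ATP synthase, 18 of 86 genes (20.9%) stood in a pair. They included Sdha, Sdhc and Sdhd of complex II, with pairs at mean percentiles of 99.6, 97.6 and 97.1, and Atp5c1, paired with Kin, at 94.4. All but Ndufa5 were open in all 6 libraries. Cox4i1 was at 86.7 and 85.9 in beige, 77.5 and 72.7 in white and 85.7 and 85.2 in brown, with the white libraries lowest and no overlap. Single-start members of the same lists were open in all 6 libraries in 44 of 45 and 52 of 59 cases, so that openness did not set the paired members apart.

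DNA repair genes stood in a pair in 20 of 75 cases (26.7%), and 18 of the 20 were open in all 6 libraries. Rad51c and Xrcc1 had no interval over the span and one at another annotated start in all 6 libraries. Of the single-start repair genes 44 of 48 (91.7%) were open in all 6, and of all pairs 94.0%, so the share of open repair pairs was near both. The repair pairs had a median percentile of 96.3. Brca1/Nbr1, which joins a recombination factor with an autophagy receptor, was lower, at 62.1 and 74.0 in beige, 64.7 and 81.6 in white and 64.3 and 74.0 in brown, and its conditions overlapped. Other lists had fewer members in pairs, namely 9 of 64 chaperones, 8 of 82 cytosolic ribosomal proteins, 8 of 48 proteasome genes, 7 of 48 genes of DNA replication and the cell cycle, 6 of 37 aminoacyl-tRNA synthetases and 3 of 23 genes of fatty acid oxidation, each open in all 6 libraries. Of these lists, only the proteasome (7.48 to 30.2%) had an exact 95% binomial interval above the 7.05% of all protein-coding genes. In the same order, 42 of 49, 63 of 70, 31 of 36, 35 of 36, 27 of 27 and 18 of 19 single-start members were open in all 6. Among all pairs the open share was 94.0%. Hspd1/Hspe1 was at 82.0 and 85.6 in beige, 89.4 and 76.2 in white and 88.9 and 94.3 in brown, and Hadha/Hadhb at 93.1 and 83.0, 89.1 and 86.7, and 88.0 and 88.9. Brown lay above beige without overlap at Hspd1/Hspe1, and the other conditions overlapped there, as all did at Hadha/Hadhb. Col4a4/Col4a3, the collagen IV pair of basement membranes, was among the weakest named pairs, at 60.3 and 52.1 in beige, 71.1 and 52.7 in white and 46.9 and 64.3 in brown.

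Genes of autophagy stood in a pair in 5 of 36 cases (13.9%, exact 95% binomial interval 4.67 to 29.5%). All 5 were open in 6 libraries, as were 27 of 29 single-start members. Of 18 genes that the study follows, Atg3, Atg4b and Uqcr10 were in pairs (16.7%, 3.58 to 41.4%). Both intervals hold the 7.05% of all protein-coding genes. Slc35a5/Atg3, which includes the E2-like enzyme of LC3 lipidation, was at 87.8 and 90.2 in beige, 86.3 and 92.3 in white and 89.2 and 96.6 in brown. Thap4/Atg4b, which includes an LC3-processing protease, was at 89.4 and 88.0, 83.0 and 89.5, and 86.3 and 90.4, and Uqcr10/Zmat5 at 97.1 and 97.7, 91.8 and 96.6, and 98.0 and 95.01. The conditions overlapped at the first 2 of these pairs, and at Uqcr10/Zmat5 beige lay above white without overlap. None of 42 genes of adipocyte identity and lipid storage stood in a pair, which allows a share of up to 8.41% (exact 95% binomial interval). The 7.05% of all protein-coding genes lies within that limit. The 12 pairs with starts over 900 and up to 1000 bp apart were open in all 6 libraries, as were 10 of the 13 pairs just beyond the limit, at up to 1100 bp.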

How the data were processed

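The authors trimmed reads, aligned them to mm10 with BWA and called peaks with MACS2 at q under 0.05, separately in each library, per the study's methods and the labels. The deposited lists give for each summit a fold enrichment (a ratio), a −log10 p and a −log10 q, which the authors' caller wrote. They hold no read counts. Summits of 1 interval were merged at their highest −log10 q, and any overlap of at least 1 bp with a region counted. Starts came from GENCODE vM21 (basic) and sequence from the GRCm38 assembly. Open shares, widths, fold percentiles, summit numbers and motif shares were compared between promoter classes with exact two-sided paired permutation tests over the 6 libraries, adjusted over 15 tests (Python 3.11.15, scipy 1.17.1), after tests on simulated data. Conditions, at 2 libraries each, were compared by values only. The pairs and gene lists were chosen with earlier results of these data known. Named pairs were the well-known pairs of a fixed list, pairs with genes of the study, the 5 highest and 3 lowest by mean fold percentile, the 3 widest, the 5 shortest without an interval, and up to 4 per gene list in alphabetical order. Pairs named beyond this rule, for their values or as list members, were picked after these were seen. Other q limits, equally long lists, stricter overlap, other starts, CpG-rich promoters and left-out libraries were tried as alternatives.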

Additional observations from a re-analysis of the deposited data

How the results depend on the processing

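The differences in open share, width, fold percentile and summit number kept their direction and stayed at an exact permutation p of 0.03125 in each of 9 alternatives, with ranges of 7.58 to 44.3 percentage points, 55.1 to 120 bp, 3.84 to 6.38 points and 0.172 to 0.348 summits. The lowest open share, width, fold percentile and summit differences all came with CpG-rich promoters only. Requiring the strongest summit to lie in the span lowered the pairs counted in all 6 libraries from 731 to 285. With that rule the NRF1 difference was 0.574 points (exact permutation p = 0.0625), SP/KLF −0.404 (0.28125) and the cyclic AMP response element −0.309 (0.125), a reversal. The latter was 0.979 with starts up to 500 bp apart, 0.709 in CpG-rich promoters and 0.643 within 100 bp of a start (exact permutation p = 0.03125 each), and −0.165 (0.40625) within 50 bp of the summit. Within 50 bp YY1 was 0.508 and E2F 0.264 (exact permutation p = 0.125 each). TATA turned to 0.0771 in CpG-rich promoters. The cause of these changes was not tested.

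Without 1 library, 5 libraries allow no p under 0.0625, so values alone were compared. They ranged from 41.3 to 41.7 points for the open share, 88.5 to 104 bp, 5.17 to 5.61 points, 0.239 to 0.283 summits, 731 to 733 pairs, and for motifs from 10.7 to 11.3 (ETS), 8.39 to 8.80 (NF-Y), 2.35 to 2.54 (YY1), 1.64 to 1.74 (ZBTB33), 1.05 to 1.29 (NRF1), 0.612 to 0.728 (E2F), 0.341 to 0.561 (cyclic AMP response element), −2.22 to −1.86 (SP/KLF), −2.69 to −2.52 (CTCF), −1.68 to −1.50 (AP-1) and −0.549 to −0.408 (TATA). The tests pair the promoter classes within each library. For the replicate numbers across conditions, no paired analysis was possible because conditions were compared by values alone, 2 libraries against 2 allowing no p under 0.333.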
